A study of Mus musculus with 2 samples.

Results

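The collagen and laminin genes encode the chains of the fibres and sheets of the extracellular matrix, and 53 of the 23320 gene symbols present in both libraries belonged to them by name (Col or Lam followed by a chain number). They comprised 11 fibrillar collagens, 8 basement membrane collagens (the type IV chains and types XV and XVIII), 24 other collagens and 10 laminin chains. The libraries were made from primordial germ cells (PGCs), the precursors of eggs and sperm, sorted by their GFP from E13.5 embryos of MCH females and Oct4-deltaPE-GFP males. Control PGCs received a control lentivirus and Klf9-OE PGCs a lentivirus (CSII-EF vector) with the coding region of Klf9, each at an MOI of 5, and both were cultured for 1 day on gelatin-coated plates. The labels give both libraries a medium containing bFGF, whereas the text of the study describes these cells as cultured without bFGF. Genital ridges came from male and female embryos, and the number pooled for a library was not stated. With 1 library per condition there was no replicate check on any difference, and no test across replicates was possible.

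Collagens are trimers of chains with a long triple helix. Fibrillar collagens, such as types I, II and III, form the ropes of interstitial matrix, whereas type IV collagen forms the network of basement membranes, the thin sheets under epithelia and around vessels. Laminins are cross-shaped trimers of an alpha, a beta and a gamma chain that bind integrins and dystroglycan on cells and assemble with type IV collagen, nidogen and perlecan. In the fetal gonad, basement membranes surround the cords in which germ cells lie, and interstitial collagens are made by stromal cells. PGCs themselves migrate over and adhere to such matrix.

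Expression was measured as FPKM (fragments per kilobase of transcript, scaled to the mapped fragments of the library), with a 95% interval that Cufflinks gives for each value. The interval covers the error of estimation within a library only, and intervals are called apart where they do not overlap between the conditions. Klf9 itself had an FPKM of 2.27 (1.97 to 2.57) in control PGCs, and its FPKM was 80.8 (77.0 to 84.5) with the Klf9 virus. Germ cell markers were abundant in both libraries, with Ddx4, Dazl, Pou5f1 and Dppa3 between 179 and 378 FPKM in Klf9-OE PGCs. However, 6 of the 8 markers were lower there with intervals apart and 1 was higher. Of all genes with a mean FPKM of at least 1, 20.2% were apart and lower and 14.6% apart and higher. Read totals were not in the files, and the widths of the intervals gave 1.2 reads in the Klf9-OE library for each control read. Among genes with 1 to 9 reads by this measure, even numbers made up 40.1% of 1549 genes in control but 88.9% of 1318 genes with Klf9-OE. The cause was not tested, and counts of intervals apart are also given with the Klf9-OE interval widened by the square root of 2. For 18 of the 32 collagen and laminin genes with a mean FPKM of at least 1, the ratio of these estimated reads, given the depth, did not follow the ratio of FPKM within 10%. Those of them with intervals apart were Col5a2, Col11a2, Col6a1, Col12a1, Col13a1, Col14a1, Col22a1, Col9a2 and Lamb1.

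Of the 53 genes, 52 were above 0 in at least 1 library, and Col9a3 was listed at 0 in both. The libraries differed little in sum, as the 53 genes totalled 267 FPKM in control PGCs and 256 in Klf9-OE PGCs, a ratio of 0.959. The ratio of the sums over all genes was 0.958, which also stands beside the summed ratios of the classes below. Basement membrane chains made up most of this total, with Col4a1 the highest value in both libraries. Lama3, Lamb1, Lamb2, Col18a1, Col4a2 and Lamc1 followed, all between 16.7 and 34.2 FPKM, although the interval of Lamb2 began at 0 in both libraries. Col1a1, the leading fibrillar chain, reached 9.09 in control and 12.5 in Klf9-OE PGCs.

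The Klf9-OE value was 2 or more times the control value for 5 of the 52 genes (Col5a2, Col11a2, Col6a4, Col6a5 and Col19a1), beside 9.82% of all 18742 genes above 0. At least 2-fold lower were Col9a1 and Col10a1, beside 9.43% of all genes. The intervals of 16 genes were apart and higher in Klf9-OE PGCs, against 11.2% of 18626 genes, and those of 5 genes were apart and lower, against 14.4%. With the wider Klf9-OE interval, 13 of the higher and 4 of the lower genes remained apart, against 8.46% and 12% of all genes. Of the 28 genes whose estimated reads followed the FPKM, 8 were apart and higher (Col1a1, Col1a2, Col3a1, Col4a5, Col4a6, Col15a1, Col6a5 and Col8a1) and 3 were apart and lower (Col5a1, Col9a1 and Lama4), against 8.11% and 13.4% of 9616 genes of that kind. The genes lost with the wider interval were Col22a1, Col6a1 and Col8a1 among the higher genes, and Lama4 among the lower.

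Among the 32 genes with a mean FPKM of at least 1, 12 were apart and higher, beside 14.6% of 12188 genes at that level, and 4 were apart and lower, beside 20.2%. Only Col5a2 and Col11a2 of these 32 were at least 2-fold higher, beside 3.40% of 12249 genes, and no gene was at least 2-fold lower, beside 3.34%. The 16 higher genes were all collagens, namely 5 fibrillar, 3 basement membrane and 8 other collagens. The 5 lower genes were Col5a1, Col9a1, Col9a2, Lamb1 and Lama4. No laminin chain was apart and higher.

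**Figure D1:**
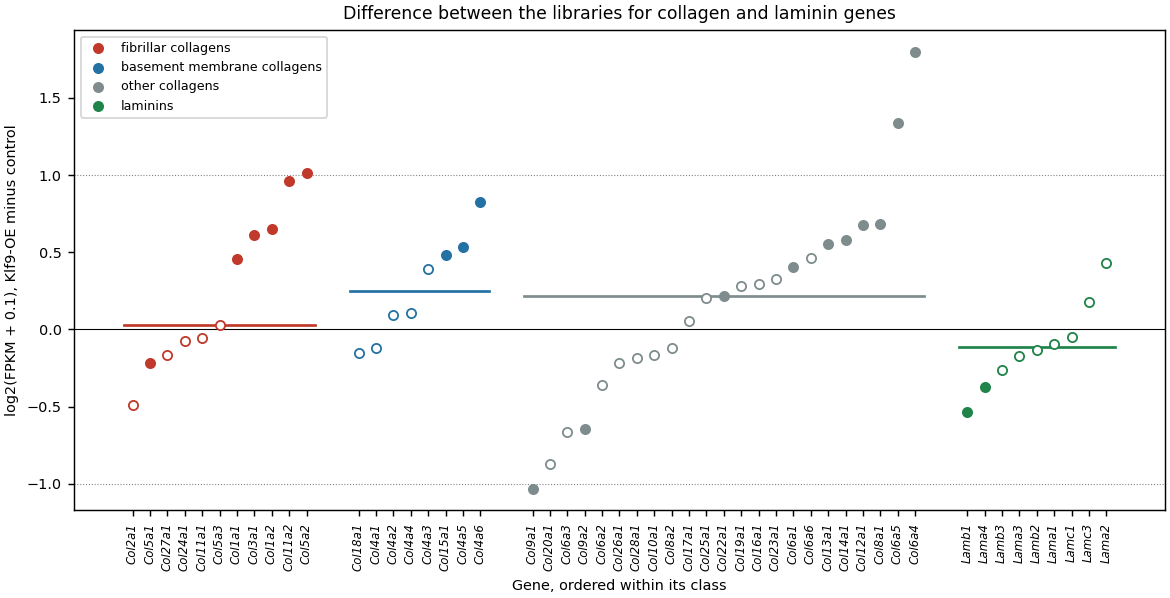
Difference of log2(FPKM + 0.1) between Klf9-OE and control PGCs (vertical axis) for 51 of the collagen and laminin genes above 0 (horizontal axis), ordered within each class. Filled points have Cufflinks intervals apart and open points have intervals that overlap, coloured lines are class medians (0.03 for fibrillar collagens, 0.25 for basement membrane collagens, 0.22 for other collagens and -0.11 for laminins), and dotted lines mark 2-fold; Col6a4 and Col6a5 lie highest and Col9a1 lowest.

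The fibrillar collagens divided into chains that were higher in Klf9-OE PGCs and chains that were not. Col1a1 and Col1a2, which encode both chains of type I collagen, and Col3a1, the type III chain, were higher with intervals apart. So were Col5a2 and Col11a2, chains of the thin collagens that start fibrils inside type I and type II fibres. Summed over the 11 genes, fibrillar collagens had 31.9 FPKM in control and 39.5 in Klf9-OE PGCs, a ratio of 1.24. On the log2(FPKM + 0.1) scale the median difference was 0.03 over all 11 genes and 0.54 over the 8 with a mean FPKM of at least 1, beside -0.02 over all genes and -0.03 over those at that level.

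Col1a1 (chromosome 11, 94936270 to 94951856 of mm10) had an FPKM of 9.09 (8.55 to 9.63) in control PGCs against 12.5 (11.95 to 13.1) with Klf9-OE, a ratio of 1.38. Col1a2 (chromosome 6, 4505697 to 4541543) had 1.03 (0.855 to 1.203) and 1.68 (1.47 to 1.88), a ratio of 1.63. Both type I genes were thus higher, but their levels were far apart per length, with Col1a1 at 8.83 times Col1a2 in control and 7.48 times in Klf9-OE PGCs. Col3a1 (chromosome 1, 45311538 to 45349706) had 5.26 (4.88 to 5.64) in control and 8.08 (7.66 to 8.51) in Klf9-OE PGCs, a ratio of 1.54.

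The 3 type V chains went separate ways. Col5a2 (chromosome 1, 45374331 to 45503282) was the fibrillar gene with the highest ratio, from 1.43 (1.24 to 1.62) in control to 2.98 (2.74 to 3.22) in Klf9-OE PGCs, 2.09-fold higher with an interval of the ratio of 1.79 to 2.44. Col5a1 (chromosome 2, 27886425 to 28039510) was lower, at 7.6 (7.12 to 8.08) and 6.51 (6.10 to 6.92), a ratio of 0.857. Its intervals overlapped when both libraries were scaled to the same sum. Col5a3 had 2.62 (2.34 to 2.90) and 2.67 (2.26 to 3.09), which overlapped. Col5a1 exceeded Col5a2 by 5.33 times in control and by 2.19 times in Klf9-OE PGCs.

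Col11a2 (chromosome 17, 34039437 to 34066242), a type XI chain, had 0.901 (0.745 to 1.06) in control and 1.85 (1.63 to 2.07) in Klf9-OE PGCs, a ratio of 2.06 with an interval of 1.67 to 2.53. Col11a1, its partner chain, had 0.868 and 0.833 with overlapping intervals, so the chains of type XI collagen had unequal ratios. A locus without a gene name overlapped the span of Col11a2 in the Klf9-OE library only, with an FPKM of 27, and its part in the difference was not tested. Col2a1, the type II collagen of cartilage, had 2.27 (1.97 to 2.56) in control and 1.58 in Klf9-OE PGCs, where the interval ran from 0 to 6.90, so its difference could not be read. Col27a1 and Col24a1 stayed below 1 FPKM in both libraries with overlapping intervals.

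Levels of stromal genes were compared as well, since interstitial collagens are known from such cells. In bulk RNA, fewer cells of a type and less RNA per cell cannot be told apart. Of 9 markers of mesenchyme and stroma, 8 had a row of their own, and these summed to 6.49 FPKM in control and 7.90 in Klf9-OE PGCs, a ratio of 1.22. Pdgfrb had 1.06 (0.880 to 1.24) and 1.89 (1.67 to 2.10), the only marker of the list with a mean of at least 1 and intervals apart. Dcn had 0.928 and 1.31, Postn 1.64 and 1.80, and Twist1 2.19 and 1.92, all with overlapping intervals. Tcf21 was listed at 0 in Klf9-OE PGCs and Lum at 0 in control PGCs. Pdgfra shared a row with a microRNA, which had 3.05 in control and 2.50 in Klf9-OE PGCs. The part of such cells in the levels of type I and type III collagen was not tested. The markers of pericytes and smooth muscle summed to 52.8 and 73.4 FPKM, mostly from Tagln (36.5 and 57.7), while Acta2 had 14.6 in both and Myh11 1.18 and 0.521. Those of Sertoli and granulosa cells summed to 25.6 and 29.0. Of 7 with a mean of at least 1, 3 were apart and higher and 2 apart and lower, beside 14.6% and 20.2% of all genes. The higher genes were Amh (5.99 and 9.29), Wt1 (3.41 and 5.64) and Gata4 (6.21 and 7.47). The lower genes were Sox9 (2.04 and 1.09) and Amhr2 (3.81 and 2.19).

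**Figure D2:**
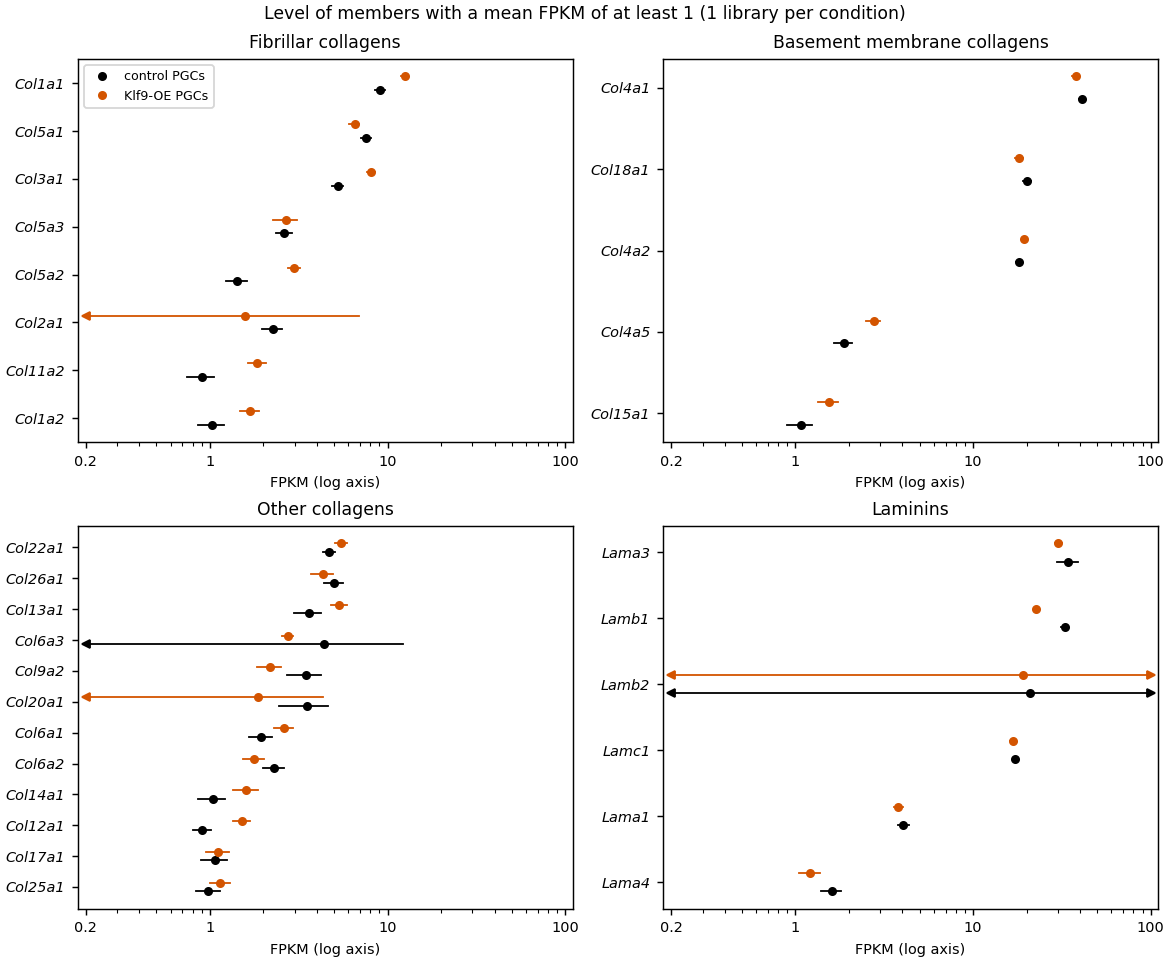
FPKM on a log axis (horizontal) of 31 genes with a mean FPKM of at least 1, by class, with points for control (black) and Klf9-OE PGCs (orange), 1 library each, and bars for the Cufflinks 95% interval. Arrows mark bars that run below 0.2 or above 100 FPKM; Col4a1 is highest in both libraries, and the bars of Lamb2 cover the whole axis.

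Of the 8 basement membrane collagens, 3 were higher in Klf9-OE PGCs with intervals apart, beside 11.2% of all 18626 genes. The abundant chains had ratios near 1. The class summed to 83.2 FPKM in control and 81.1 in Klf9-OE PGCs, a ratio of 0.974 that became 1.02 when the libraries were scaled to the same sum. Col4a1, Col18a1 and Col4a2 gave 95.4% of that sum in control and 92.9% in Klf9-OE PGCs. The 3 genes that were higher with intervals apart were Col4a5, Col4a6 and Col15a1, all less abundant chains. No gene of the class was apart and lower, beside 14.4% of all genes.

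Col4a1 and Col4a2 encode the chains of the ubiquitous type IV network and lie head to head on chromosome 8. In the files, Col4a1 spans 11198423 to 11312826 on the reverse strand and Col4a2 spans 11312829 to 11449287 on the forward strand, 2 bases apart. Col4a1 had 41.1 FPKM (39.5 to 42.7) in control and 37.8 (36.0 to 39.5) in Klf9-OE PGCs, with intervals that overlapped narrowly. Col4a2 had 18.2 (17.5 to 18.8) and 19.4 (18.79 to 20.01), which also overlapped narrowly and came apart when the libraries were scaled to the same upper quartile or the same sum. The ratios were 0.919 for Col4a1 and 1.07 for Col4a2, and Col4a1 was at 2.26 times Col4a2 in control and 1.95 times in Klf9-OE PGCs.

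Col4a5 and Col4a6, the X-linked chains of more specialised basement membranes, also lie head to head, with 1342 bases between their spans. Col4a5 (chromosome X, 141475419 to 141689235) had 1.87 (1.65 to 2.09) in control and 2.75 (2.51 to 3.001) in Klf9-OE PGCs, a ratio of 1.48. Col4a6 (141165403 to 141474076) had 0.547 (0.435 to 0.658) and 1.04 (0.902 to 1.19), a ratio of 1.91 with an interval of 1.49 to 2.44. Both genes were therefore higher with intervals apart, unlike the Col4a1 and Col4a2 couple, but this difference between the couples was not tested. The remaining type IV genes, Col4a3 and Col4a4 on chromosome 1, are 71 bases apart head to head. They were near the lower end of the range, with Col4a3 at 0.121 and 0.190 and Col4a4 at 0.236 and 0.262, and their intervals overlapped.

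Col18a1 (chromosome 10, 77052179 to 77166530), whose C-terminal fragment is endostatin, had 20.1 (18.99 to 21.3) in control and 18.1 (17.1 to 19.1) in Klf9-OE PGCs, overlapping intervals with a ratio of 0.90. Col15a1 (chromosome 4, 47208012 to 47313165), its close relative, had 1.07 (0.898 to 1.25) and 1.54 (1.34 to 1.73), a ratio of 1.43 with intervals apart. Endothelial markers, from a cell type that makes basement membrane, summed to 28.4 FPKM in control and 41.0 in Klf9-OE PGCs over 7 genes. Pecam1, which germ cells also express, gave most of it (16.8 and 24.2), Cdh5 had 2.0 (1.66 to 2.33) and 5.09 (4.57 to 5.60), and Emcn was at 0.0298 in control and listed at 0 in Klf9-OE PGCs. Kdr and Tek were below 1 in both libraries, and of the 7 genes Pecam1 and Cdh5 were apart and higher and Tek apart and lower. The part of endothelial cells in the type IV and type XV levels was not tested.

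The laminins were the only class of which more chains lay below 0 than above, 7 of 10 on the log2(FPKM + 0.1) scale, with a median difference of -0.11 beside -0.02 over all genes. Their sum was 115 FPKM in control and 98.4 in Klf9-OE PGCs, a ratio of 0.855. Lamb1 accounted for most of the difference, although its estimated reads did not follow its FPKM, and Lama4 was the other chain with intervals apart.

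Lamb1 (chromosome 12, 31265294 to 31329639), the common beta chain of embryonic laminins, had 32.8 FPKM (31.1 to 34.4) in control and 22.6 (21.9 to 23.3) in Klf9-OE PGCs, a ratio of 0.690 with an interval of 0.650 to 0.732. Lamc1 (chromosome 1, 153218922 to 153332786), the gamma chain with which it assembles, had 17.3 (16.7 to 17.9) and 16.7 (16.2 to 17.2), which overlapped. Lama1, the alpha chain of the first embryonic laminin, had 4.05 (3.76 to 4.33) and 3.79 (3.57 to 4.01), which overlapped too. Of the 3 chains of that laminin, Lamb1 alone had intervals apart, and Lamb1 went from 1.89 to 1.35 times Lamc1. The reads of Lamb1 estimated from its intervals were 1593 in control and 4213 in Klf9-OE PGCs. They thus went against its lower FPKM, and the cause was not tested.

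Lama4 (chromosome 10, 38965515 to 39110188), a chain of vessel laminins, had 1.60 (1.40 to 1.80) in control and 1.21 (1.05 to 1.37) in Klf9-OE PGCs, a ratio of 0.759. Its intervals overlapped with the wider Klf9-OE interval and with either rescaling. Lama2, the chain of muscle laminin, was at 0.141 and 0.225 with overlapping intervals. Lama5 shared a row with a microRNA and was not among the 53 genes. That row had 6.29 FPKM in control, where the interval ran from 0 to 316, and 4.33 (3.43 to 5.23) in Klf9-OE PGCs.

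Lama3 and Lamb3 are known from the laminin under stratified epithelia, but their levels were far apart in PGCs. Lama3 had 34.2 (29.6 to 38.8) in control and 30.3 (29.0 to 31.5) in Klf9-OE PGCs, the highest laminin value in both libraries. Lamb3 had only 0.0572 (0.000736 to 0.114) and 0.0312 (0 to 0.0773). Both had overlapping intervals. The span given for Lama3 differed between the libraries, and its FPKM does not say which of its transcripts was present. Lamc3 was at 0.108 and 0.135. Lamb2 had 21.03 and 19.2, but with intervals of 0 to 646 and 0 to 249 its level was not defined by these files.

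The remaining 24 collagens held both the highest ratios and the lowest. Their sum was 37.1 FPKM in control and 37.4 in Klf9-OE PGCs, a ratio of 1.01, and no gene exceeded 5.47 FPKM. Type VI collagen, a network of beaded filaments around cells, has 6 genes in the mouse. Its chains Col6a4, Col6a5 and Col6a6 lie in a row within chromosome 9, from 105689395 to 106096691 on the reverse strand.

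Col6a4 (105990318 to 106096691) had 0.341 FPKM (0.257 to 0.425) in control and 1.43 (1.08 to 1.79) in Klf9-OE PGCs, 4.20-fold higher with an interval of 2.96 to 5.95. Col6a5 (105856070 to 105960643) had 0.288 (0.219 to 0.356) and 0.877 (0.769 to 0.985), 3.05-fold higher with an interval of 2.33 to 3.99. Col6a6 was at 0.146 (0.0810 to 0.212) and 0.239 (0.169 to 0.310), with overlapping intervals and a ratio of 1.64. The values of all 3 neighbours were thus higher in Klf9-OE PGCs, with intervals apart for Col6a4 and Col6a5. Col6a4 was among the genes whose reads, as estimated from the intervals, did not follow the FPKM.

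Of the common type VI chains, Col6a1 was higher, at 1.94 (1.67 to 2.22) and 2.60 (2.29 to 2.92), and lost this call with the wider Klf9-OE interval. Col6a2, its neighbour on chromosome 10, had 2.31 (1.99 to 2.62) and 1.77 (1.53 to 2.02), with intervals that overlapped. Col6a3 had 4.41 in control, where the interval ran from 0 to 12.2, and 2.75 (2.55 to 2.95) in Klf9-OE PGCs. Of these 3 chains, which form the common type VI trimer, Col6a1 alone had intervals apart, and differences between the chains were not tested.

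The collagens that sit on the surface of fibrils (FACITs) also went both ways. Col12a1, at 0.905 (0.798 to 1.01) in control and 1.51 (1.34 to 1.67) in Klf9-OE PGCs, and Col14a1, at 1.04 (0.852 to 1.22) and 1.60 (1.35 to 1.85), both decorate type I fibrils. They were higher with intervals apart, and Col22a1 (4.69 and 5.47) was higher by a ratio of 1.17 that was lost with the wider interval. Col9a1 and Col9a2, which decorate type II fibrils of cartilage, were lower. Col9a1 (chromosome 1, 24177610 to 24252738) had 1.28 (1.05 to 1.52) and 0.576 (0.426 to 0.726), a ratio of 0.450 with an interval of 0.327 to 0.619. Col9a2 had 3.47 (2.72 to 4.21) and 2.18 (1.84 to 2.53), a ratio of 0.630. The reads estimated from the intervals did not follow the FPKM for Col12a1, Col14a1, Col22a1 and Col9a2. For Col9a2 they were 86.7 in control and 164 in Klf9-OE PGCs, although its FPKM was lower there. Col20a1 had 3.51 (2.43 to 4.59) and 1.87 (0 to 4.31), and Col16a1 0.776 and 0.974, with overlapping intervals.

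The 4 markers of cartilage listed summed to 2.0 FPKM in control and 2.43 in Klf9-OE PGCs, with Acan, the cartilage proteoglycan, at 1.11 and 1.07, and none had intervals apart. Col10a1, the collagen of hypertrophic cartilage, rested on 1 read by its interval in control and was listed at 0 in Klf9-OE PGCs, and Col19a1 rested on 3 and 11.9 reads. No fold is given for these genes. Among the transmembrane collagens, Col13a1 was higher, at 3.61 (2.99 to 4.24) and 5.34 (4.79 to 5.89), while Col17a1 (1.07 and 1.12), Col23a1 (0.459 and 0.599) and Col25a1 (0.981 and 1.14) had overlapping intervals. All 4 lay above 0 on the log2 scale. Col8a1, a network collagen of vessels and cornea, had 0.259 (0.170 to 0.348) and 0.476 (0.368 to 0.584) and lost its call with the wider interval. Col26a1 had 5.02 and 4.31, Col8a2 0.510 and 0.462 and Col28a1 0.0812 and 0.0591, all with overlapping intervals.

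Of the 53 genes, 17 lay within 300 kb of another, in 8 groups. Col3a1 and Col5a2, 24624 bases apart on chromosome 1 and on opposite strands, were both higher with intervals apart, as were Col4a5 with Col4a6 and Col6a5 with Col6a4. In no group did neighbours have intervals apart in opposite directions. Col9a1 was lower while Col19a1 beside it had too few reads to compare.

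**Figure D3:**
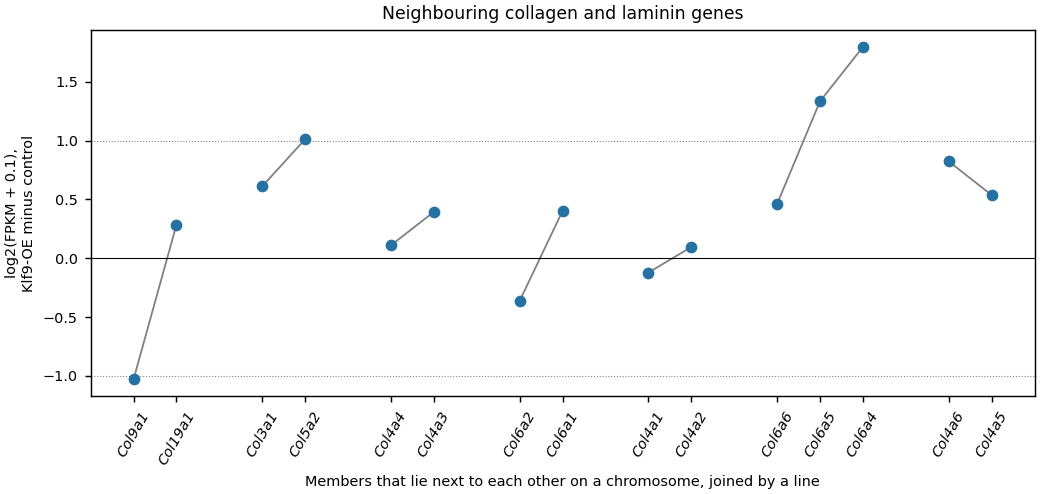
Difference of log2(FPKM + 0.1) between Klf9-OE and control PGCs (vertical axis) for 15 genes that lie within 300 kb of another collagen or laminin gene (horizontal axis), with lines joining neighbours and dotted lines at 2-fold. Both points lie above 0 for Col3a1 with Col5a2, for Col4a4 with Col4a3 and for Col4a6 with Col4a5, and all 3 points for Col6a6, Col6a5 and Col6a4. Points lie on both sides of 0 for Col9a1 with Col19a1, for Col6a2 with Col6a1 and for Col4a1 with Col4a2.

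KLF9 binds GC boxes and CACCC boxes of DNA, so the letters of these motifs were searched in promoters. RefSeq promoter sequences (GRCm38.p6, the assembly of mm10) were available for 38 of the 53 genes in 42 windows of 250 bases before a start. GGGCGG, on either strand, was in 22 of the 42 windows (52.4%), beside 32.7% of 32851 windows of all genes. CACCC, on either strand, was in 30 windows (71.4%), beside 52.0% of all. The windows of these genes were not matched for GC content. Of the genes with intervals apart, Col1a1, Col5a2, Col12a1, Col14a1, Col22a1 and Lama4 were not searched.

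The following windows are shown because they belong to Col4a5 with Col4a6 and Col6a4 with Col6a5, neighbours that were higher together, to Col11a2 and to Lamb1, the abundant chain that was lower. They are written 5′ to 3′ along the gene and end at the base before the RefSeq start, with matches to GGGCGG or CACCC on either strand in capitals, and overlapping matches run together. Col4a5 is chrX:141475169-141475418 on the forward strand, Col4a6 is chrX:141474077-141474326 on the reverse strand, Col6a4 is chr9:106096692-106096941 and Col6a5 is chr9:105960644-105960893, both on the reverse strand. The GC content of the 6 windows was between 47.6% and 62.0%. Col11a2 is chr17:34038888-34039137, before a RefSeq start that lies upstream of the span in the files, and Lamb1 is chr12:31265043-31265292, both on the forward strand.
Col4a5: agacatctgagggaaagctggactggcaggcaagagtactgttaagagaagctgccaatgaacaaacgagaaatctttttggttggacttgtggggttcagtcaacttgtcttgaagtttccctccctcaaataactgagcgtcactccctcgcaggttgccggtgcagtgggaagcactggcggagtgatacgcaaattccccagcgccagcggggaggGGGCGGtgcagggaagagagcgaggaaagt
Col4a6: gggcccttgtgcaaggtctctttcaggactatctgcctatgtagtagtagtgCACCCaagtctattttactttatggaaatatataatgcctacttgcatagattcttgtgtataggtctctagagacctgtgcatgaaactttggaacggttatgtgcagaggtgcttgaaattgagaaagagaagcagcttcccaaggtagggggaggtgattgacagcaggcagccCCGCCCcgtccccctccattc
Col6a4: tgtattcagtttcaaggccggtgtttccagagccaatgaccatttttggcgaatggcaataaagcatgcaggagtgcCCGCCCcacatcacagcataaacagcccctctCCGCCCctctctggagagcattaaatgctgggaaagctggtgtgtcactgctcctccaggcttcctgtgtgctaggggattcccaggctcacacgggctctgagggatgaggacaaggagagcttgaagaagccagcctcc
Col6a5: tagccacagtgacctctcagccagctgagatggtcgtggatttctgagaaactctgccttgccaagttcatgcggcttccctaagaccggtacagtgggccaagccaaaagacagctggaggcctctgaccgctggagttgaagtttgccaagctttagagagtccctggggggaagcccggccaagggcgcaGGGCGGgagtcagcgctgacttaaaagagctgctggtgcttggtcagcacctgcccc
Col11a2: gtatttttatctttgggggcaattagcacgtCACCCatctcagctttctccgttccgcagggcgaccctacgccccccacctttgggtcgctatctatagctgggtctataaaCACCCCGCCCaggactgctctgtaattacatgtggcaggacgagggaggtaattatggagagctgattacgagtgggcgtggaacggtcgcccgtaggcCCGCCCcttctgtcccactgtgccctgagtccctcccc
Lamb1: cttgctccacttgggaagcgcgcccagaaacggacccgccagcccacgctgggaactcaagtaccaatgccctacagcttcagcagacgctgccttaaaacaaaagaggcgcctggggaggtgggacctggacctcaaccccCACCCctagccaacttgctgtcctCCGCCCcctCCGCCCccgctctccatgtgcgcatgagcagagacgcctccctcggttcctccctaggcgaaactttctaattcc

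Each of the 6 windows held GGGCGG on a strand, with 2 matches in Col6a4, Col11a2 and Lamb1 and 1 match in the others. These windows were chosen for display, so their share does not stand for the 42 windows, of which 22 (52.4%) held GGGCGG. Windows of other genes with intervals apart were searched but are not shown. CACCC was matched 2 times in Col11a2, 1 time in Col4a6 and Lamb1, and had no match in the windows of Col4a5, Col6a4 and Col6a5. Both motifs were thus matched in the window of Lamb1, which was lower, and in those of Col11a2 and Col4a6, which were higher. A match is not evidence of binding, and no binding data were analysed here.

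Genes that make, bind and degrade this matrix were compared from lists. Of 31 genes of collagen synthesis, 23 had a row of their own and a mean FPKM of at least 1, of which 7 were apart and higher, 3 were apart and lower and 13 overlapped. These were 7 and 3 of 23 genes, beside 14.6% and 20.2% of all genes at that level. None differed 2-fold, and the median over the 28 genes above 0 was 0.04 on the log2(FPKM + 0.1) scale. Named after their values were seen, Serpinh1, the collagen chaperone of the endoplasmic reticulum, had 48.0 (45.3 to 50.8) and 62.4 (59.1 to 65.6). Bmp1, which removes the C-propeptide of fibrillar collagens, had 6.90 (6.35 to 7.45) and 10.9 (10.2 to 11.5), and Mia3, needed for export of large collagens, had 20.2 and 31.3. Sparc, a collagen-binding matrix protein, had 57.4 (54.9 to 59.9) and 85.2 (82.0 to 88.4). These 4 were apart and higher. The 3 genes apart and lower were P4hb, a subunit of prolyl hydroxylase, at 265 and 243, P3h4 at 6.13 and 3.97, and Adamts14 at 1.47 and 0.964.

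Basement membrane partners were mostly lower, with 10 of the 16 genes with a mean of at least 1 apart and lower and 2 apart and higher, beside 20.2% and 14.6% of all genes. The median over all 19 was -0.23 on the log2(FPKM + 0.1) scale. Nid1, the nidogen that links laminin to type IV collagen, was apart and higher, as was Fbln2 (10.3 and 11.9), and was the only gene of the 6 pathway lists with a mean of at least 1, a ratio of at least 2 and intervals apart. It had 8.53 (8.07 to 9.0) in control and 25 (23.8 to 26.3) in Klf9-OE PGCs, 2.93-fold higher. Nid2, its relative, had 21.4 and 22.9, which overlapped. Among the lower genes, named after their values were seen, fibronectin (Fn1) had 128 (123 to 134) and 109 (104 to 114), Fbln1 47.6 and 31.4, and Hspg2, which encodes perlecan, 6.80 (6.47 to 7.13) and 6.01 (5.66 to 6.35).

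Interstitial matrix partners were divided, with 3 apart and higher, 3 apart and lower and 3 overlapping among 9 genes with a mean of at least 1. The shares of all genes at that level, 14.6% apart and higher and 20.2% apart and lower, stand beside the counts of this and the next 3 lists as well. Thbs1 was higher (4.12 and 7.68) and elastin, Eln, lower (5.09 and 3.27). Of 8 matrix receptors at that level, 6 overlapped, Itgb1, the common beta chain of collagen and laminin integrins, was higher by a ratio of 1.08, and Ddr1, a collagen receptor kinase, was lower by a ratio of 0.90. Itga6, a laminin receptor chain, had 15.2 and 15.3, and Dag1, dystroglycan, 54.5 and 55.3. Of 9 genes of matrix turnover, 4 were apart and higher and 2 were apart and lower. The higher genes were Mmp9, a gelatinase, at 7.22 and 12.9, Timp1 at 25.7 and 32.9, Timp3 at 11.1 and 12.6, and Adamts1 at 2.91 and 3.69. The lower genes were Mmp11 at 15.9 and 11.9 and Mmp15 at 5.18 and 3.89. Of 8 genes of TGF-beta signalling, a pathway that raises collagen transcription in many cells, 1 was apart and higher and 2 were apart and lower, with Ctgf, a matrix-associated target of the pathway, at 19.4 and 20.6 with overlapping intervals. The genes of this paragraph were named after their values were seen.

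**Figure D4:**
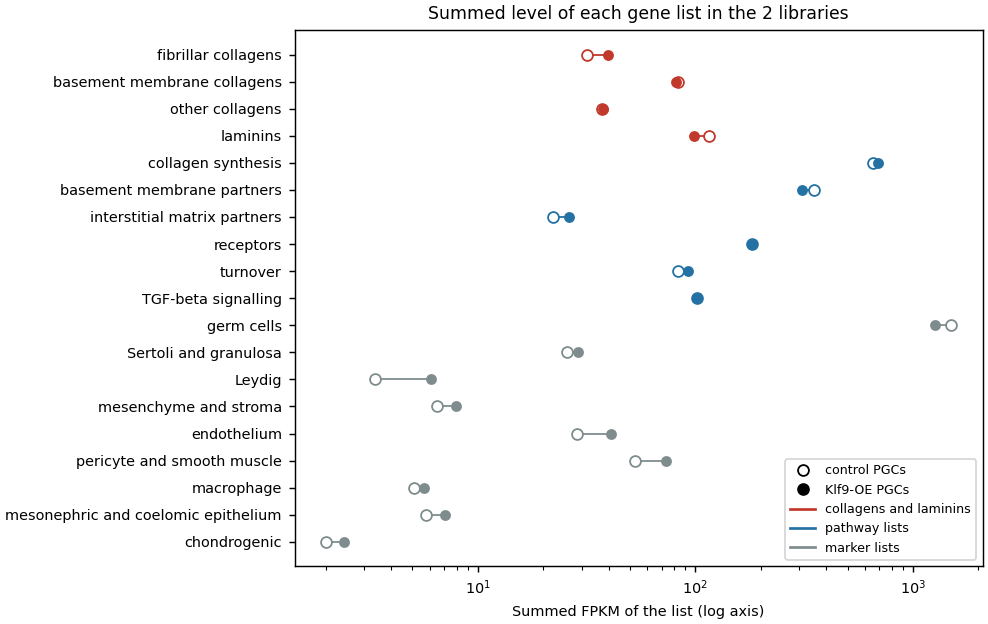
Summed FPKM on a log axis (horizontal) of each gene list (vertical) in control (open points) and Klf9-OE PGCs (filled points), for the 4 collagen and laminin classes in red, pathway lists in blue and cell type markers in grey. The sums of fibrillar collagens (31.9 and 39.5) and of the 8 marker lists of somatic cells are higher in Klf9-OE PGCs, although 3 of these lists had medians that were not above 0, and those of laminins (115 and 98.4), basement membrane partners (352 and 310) and germ cell markers (1500 and 1260) are lower.

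Markers of other cell types gave sums of 3.36 and 6.08 FPKM for Leydig cells, where Star was listed at 0 in control and had 2.39 in Klf9-OE PGCs. They gave 5.07 and 5.64 for macrophages and 5.79 and 7.08 for mesonephric and coelomic epithelium. Cyp17a1, a steroidogenic enzyme of Leydig cells, had 0.0666 (0 to 0.279) in control and was listed at 0 in Klf9-OE PGCs. Of the 6 macrophage markers, 1 was apart and higher and 1 apart and lower, beside 11.2% and 14.4% of all genes. The higher one was Csf1r, at 0.307 (0.196 to 0.417) in control and 1.18 (0.834 to 1.53) in Klf9-OE PGCs. The lower one was C1qb, a complement gene, at 0.635 (0.304 to 0.966) in control and listed at 0 in Klf9-OE PGCs. For all 8 somatic marker lists, sums were higher in Klf9-OE PGCs and that of the germ cell list was lower. Tagln and Star carried most of the difference in their lists, and the medians on the log2(FPKM + 0.1) scale were -0.22 for Sertoli and granulosa cells, -0.23 for macrophages and near 0 for pericytes and smooth muscle. The other 5 somatic lists had medians between 0.04 and 0.43, and the part of this in the collagen values was not tested.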

How the data were processed

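RNA-seq of 1 control and 1 Klf9-OE library of PGCs was analysed. Per the submitters' processing notes and the methods of the study, single-end reads were mapped to mm10 and RefSeq with TopHat2 and Bowtie, and Cufflinks estimated expression. Versions are not given in the sources used here. The deposited FPKM (for single-end reads, RPKM) carry the bounds of a 95% interval, and the study's Cuffdiff results were not used. Rows without a gene name entered no comparison.

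FPKM of rows with the same symbol were summed. Counts of 2-fold genes used the plain ratio (2 and above, or 0.5 and below), and log2 values used a pseudocount of 0.1. The number of reads behind an FPKM was estimated from its upper bound, by dividing 2 times the FPKM by the distance to that bound and squaring, and intervals of ratios used the same errors. Genes with intervals apart were counted among genes with a single row. Starts in the files count from 0 and are given from 1. Named were genes with a mean FPKM of at least 1, genes below it with intervals apart, all type IV and laminin chains, and list genes with a ratio past 2-fold and intervals apart. Some genes that entered the counts, sums and medians are not reported here by name and are not drawn in the plots. The genes and lists were chosen with earlier results of these data known. Counting was tested on simulated data. Older symbols in the lists were matched through RefSeq, and for 39 of the 42 promoter windows 25 bases after the start were found in a GENCODE transcript of the gene. Alternatives were other pseudocounts, filters, scalings, intervals and thresholds. With 1 library per condition no replicate could be left out. Python 3.11.15, numpy 2.4.6, pandas 2.3.3 and matplotlib 3.10.9 were used.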

Additional observations from a re-analysis of the deposited data

Results flagged for a closer look

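Signals at collagen and laminin genes appeared in rows that entered no comparison, above the level in control PGCs. The row shared by Col7a1, the collagen of anchoring fibrils, and Mir711 had 1.06 FPKM in control (0.119 to 2.01) and 2.80 in Klf9-OE PGCs (1.87 to 3.72), with intervals that overlapped. Loci without a gene name that overlapped the spans of other genes summed to 64.9 FPKM in Klf9-OE PGCs and 9.86 in control for Col13a1. In Klf9-OE PGCs they summed to 27 for Col11a2, 14.6 for Col6a3, 10.4 for Lama3 and 2.56 for Col4a3, with no such locus in control. The Klf9-OE file held more rows in all, 39071 against 30382.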

How the results depend on the processing

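With a mean FPKM of at least 1, the genes at least 2-fold higher numbered 2 and those at least 2-fold lower 0, since fewer genes entered. With FPKM above 0 in both libraries 1 gene was at least 2-fold lower. With thresholds of 4 and 0.25 on the ratio, 1 gene was higher and 1 lower. Scaled to the same sum, 3 genes were apart and lower, without Col5a1 and Lama4, and the summed ratio was 1.29 for fibrillar and 1.02 for basement membrane collagens. An alternative chosen after the data were seen kept the genes whose ratio of reads followed that of FPKM, given the depth of the libraries, within 10%, and left 8 genes apart and higher and 3 apart and lower, since fewer genes entered. Another, also chosen then, left out genes with a lower bound of 0. It gave summed ratios of 1.28 for fibrillar, 0.974 for basement membrane and 1.12 for other collagens, and 0.843 for laminins. The median of fibrillar collagens was 0.54 with a mean FPKM of at least 1. For the 32 genes at that level, 125 of 128 log2 differences under other pseudocounts and scalings moved by less than the interval. The scalings shifted log2 values by 0.029 and 0.0619 at most, below the narrowest half-width of an interval (0.066, Lamc1). They could therefore move no gene, and wide intervals such as that of Lamb2 left no room to move either. The count is thus no measure of stability. Col5a2, Col11a2 and Col12a1 moved to 0.71, 0.58 and 0.40 with a pseudocount of 1. No paired analysis was possible because each condition had 1 library and no test. Depth limits the genes near or below 0.1 FPKM, among them Lamb3, Lamc3, Col10a1, Col19a1 and Col28a1.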

Other observations

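Loci without a gene name were lower in Klf9-OE PGCs at Col14a1, where they summed to 29.3 FPKM in control and 3.06 in Klf9-OE PGCs, and at Col25a1, where 1 such locus with 1.28 FPKM was in the control library only.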
